A study of Arabidopsis thaliana with 12 samples.

Results

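Thalianol and marneral are triterpenes that Arabidopsis makes from 2 groups of neighbouring genes on chromosome 5, and the expression of these 7 genes was examined in root explants. The thalianol cluster was taken as AT5G47980, CYP705A5 (AT5G47990), CYP708A2 (AT5G48000) and THAS1 (AT5G48010), and the marneral cluster as CYP705A12 (AT5G42580), CYP71A16 (AT5G42590) and MRN1 (AT5G42600). The 7 genes, out of 33557 features in the deposited table, were chosen by identifier, after large cytokinin folds of AT5G47980 and CYP705A5 had been seen. Their folds in all comparisons are therefore a description, and the calls printed beside them add no independent evidence.

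Triterpene synthesis starts from 2,3-oxidosqualene, the last precursor shared with the membrane sterols. An oxidosqualene cyclase folds it into a ring skeleton, which cytochrome P450 enzymes and acyltransferases then decorate. THAS1 is the cyclase that makes thalianol, CYP708A2 adds a hydroxyl group to it, and CYP705A5 introduces a double bond into the resulting thalian-diol. AT5G47980 is annotated as an HXXXD-type acyltransferase. MRN1 is the cyclase that makes marneral, CYP71A16 is annotated as marneral oxidase, and CYP705A12 is a P450 of the same subfamily as CYP705A5. These gene clusters are known for expression in roots.

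Samples were groups of 3 labelled CPL4RNAi(+), CPL4RNAi(-), WT(+) and WT(-), 12 in all. CPL4RNAi is the line named in the titles, whose genotype field reads CPL4 KO, and WT is Columbia with the gl1 mutation. Neither the promoter of the construct nor the number of lines is given in the sources used here. Roots of 10-day seedlings spent 5 days on callus-inducing medium and then 72 hours on a modified medium for shoot induction; the (+) groups had the cytokinin 2iP at 0.05 mg/L and the (-) groups at 0 mg/L, and the explants were 18 days old. Values are FPKM, a level per transcript length and sequencing depth, deposited as 1 value per group with no value or error per replicate. Depth per library is unknown from these values. A gene is said to be called where the authors' deposited q-value was at or under 0.05. The standard error (SE) given for a log2 fold is its size divided by the normal quantile that matches the p-value in the table. It describes the variance that the authors' test modelled, and it is an upper limit where p stood at the table's smallest value, 5e-05. The series names the replicates biological and does not say whether they were separate cultures.

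CPL4 itself had an FPKM of 32.2 in CPL4RNAi(+) and 36.3 in CPL4RNAi(-), against 13.9 in WT(+) and 14.5 in WT(-). The FPKM assigned to the targeted gene was thus higher in the groups labelled CPL4RNAi, and which transcripts those reads came from was not tested. Every direction drawn between genotypes rests on the labels. Markers of green shoot tissue summed to between 0.583 and 0.859 FPKM over 6 genes in every group, and the 8 endodermis markers summed to 31.1 FPKM or more.

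The thalianol genes span 32.8 kb of chromosome 5 (19428888 to 19461689, TAIR10) and the marneral genes 34.6 kb (17023646 to 17058245), with 2.37 Mb between the clusters. In RefSeq's annotation of TAIR10.1 all 7 are protein-coding. AT5G47980 has 1 exon, CYP705A5 has 2, CYP708A2 has 8 or 9 by transcript, and THAS1 has 13 or 14. MRN1 has 14 exons, CYP71A16 has 4 and CYP705A12 has 2. CYP708A2, CYP705A12 and CYP71A16 lie on the minus strand and the other 4 genes on the plus strand. The gaps between neighbours widen along the thalianol cluster, at 4.35, 7.45 and 9.11 kb. In the marneral cluster 5.88 kb separate CYP705A12 from CYP71A16, and 19.8 kb separate CYP71A16 from MRN1.

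The upstream sequences of the 4 thalianol genes are shown because these genes moved together, and those of CYP71A16 and MRN1 because CYP71A16 was called for cytokinin and MRN1 was at or near 0. Each is the 250 bases before RefSeq's gene start in TAIR10.1, read 5′ to 3′ along the gene. Capitals mark AGATT, a core that type-B response regulators of the cytokinin pathway are known to bind, and TATAAA, the consensus to which the general transcription machinery binds, on either strand (AATCT and TTTATA on the opposite strand).
AT5G47980, chr5:19428638-19428887, plus strand: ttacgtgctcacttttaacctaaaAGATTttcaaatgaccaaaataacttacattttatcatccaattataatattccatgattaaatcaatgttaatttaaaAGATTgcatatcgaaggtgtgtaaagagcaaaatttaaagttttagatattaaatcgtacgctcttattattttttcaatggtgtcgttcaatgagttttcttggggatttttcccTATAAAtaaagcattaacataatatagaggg
CYP705A5, chr5:19434508-19434757, plus strand: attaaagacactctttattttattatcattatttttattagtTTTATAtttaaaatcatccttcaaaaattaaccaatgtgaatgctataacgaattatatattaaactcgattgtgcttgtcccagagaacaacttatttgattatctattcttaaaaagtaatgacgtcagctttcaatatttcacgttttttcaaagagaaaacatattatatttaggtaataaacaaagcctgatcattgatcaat
CYP708A2, chr5:19447867-19448116, minus strand: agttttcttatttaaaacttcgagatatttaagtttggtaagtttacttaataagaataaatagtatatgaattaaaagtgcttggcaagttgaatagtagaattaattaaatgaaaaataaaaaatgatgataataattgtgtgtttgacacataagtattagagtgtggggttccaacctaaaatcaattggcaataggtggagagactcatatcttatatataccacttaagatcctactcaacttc
THAS1, chr5:19456587-19456836, plus strand: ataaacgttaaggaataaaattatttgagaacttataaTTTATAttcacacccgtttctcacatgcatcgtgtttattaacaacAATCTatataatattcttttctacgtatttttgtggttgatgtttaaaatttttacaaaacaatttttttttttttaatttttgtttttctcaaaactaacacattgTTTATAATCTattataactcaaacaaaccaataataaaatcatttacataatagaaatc
CYP71A16, chr5:17033801-17034050, minus strand: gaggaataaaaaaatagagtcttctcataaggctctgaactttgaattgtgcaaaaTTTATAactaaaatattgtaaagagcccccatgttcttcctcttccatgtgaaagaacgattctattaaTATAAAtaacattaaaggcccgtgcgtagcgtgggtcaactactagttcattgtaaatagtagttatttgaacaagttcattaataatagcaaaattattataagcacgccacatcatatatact
MRN1, chr5:17053203-17053452, plus strand: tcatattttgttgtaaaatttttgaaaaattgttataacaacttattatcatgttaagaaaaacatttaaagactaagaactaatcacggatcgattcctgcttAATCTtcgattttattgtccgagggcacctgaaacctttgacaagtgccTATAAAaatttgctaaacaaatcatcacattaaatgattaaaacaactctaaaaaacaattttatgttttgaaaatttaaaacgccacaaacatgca

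AGATT occurred in 3 of the 7 members' windows, AT5G47980 and THAS1 with 2 matches each and MRN1 with 1, against 63.7% of 27443 windows of the same length before nuclear protein-coding genes. TATAAA occurred in 5 of 7 windows, against 47.3% of all windows. Neither motif was found in the windows of CYP708A2 and CYP705A12. In THAS1 a TTTATA and an AATCT share a base. These matches describe the letters of the windows and say nothing about binding.

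All 4 thalianol genes were expressed at several times the level with cytokinin as without it, in both genotypes. THAS1, the cyclase, had 56.6 FPKM in CPL4RNAi(+), 11.5 in CPL4RNAi(-), 32.9 in WT(+) and 7.40 in WT(-). CYP708A2, the hydroxylase, had 57.2, 6.56, 37.1 and 4.62 FPKM in CPL4RNAi(+), CPL4RNAi(-), WT(+) and WT(-). For both genes the order of the groups was CPL4RNAi(+), WT(+), CPL4RNAi(-) and WT(-), from high to low. CYP705A5, the desaturase, had 43.9 FPKM in CPL4RNAi(+) and 4.50 in CPL4RNAi(-), with 31.9 in WT(+) and 1.98 in WT(-). AT5G47980, the acyltransferase gene, was the lowest of the 4 in every group, with 9.61 FPKM in CPL4RNAi(+), 0.418 in CPL4RNAi(-), 6.28 in WT(+) and 0.172 in WT(-). The same order of groups held for these 2 genes. Among all features, THAS1 stood at the 92.1st percentile of FPKM in CPL4RNAi(+), the 67.4th in CPL4RNAi(-), the 85.6th in WT(+) and the 60.7th in WT(-).

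**Figure D1:**
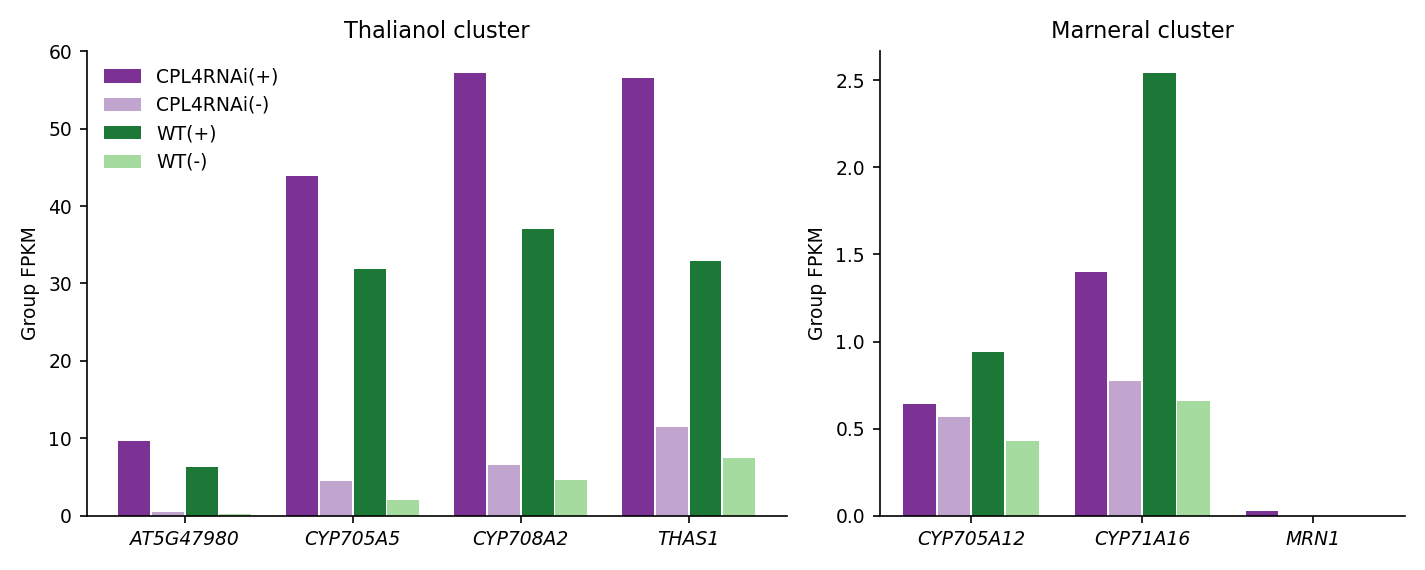
FPKM of the 7 cluster genes, 1 bar per group (3 libraries each, deposited as 1 value, so no error bars can be drawn); vertical scales differ between panels. The thalianol genes reach 57.2 FPKM with cytokinin, whereas the highest marneral value is 2.54 FPKM.

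Marneral genes were far lower. CYP71A16 had 1.40 FPKM in CPL4RNAi(+), 0.775 in CPL4RNAi(-), 2.54 in WT(+) and 0.660 in WT(-), so WT(+) was its highest group. CYP705A12 had 0.640, 0.564, 0.942 and 0.430 FPKM in CPL4RNAi(+), CPL4RNAi(-), WT(+) and WT(-), the same group order as CYP71A16. MRN1, the cyclase on which the marneral pathway depends, was listed at 0 in CPL4RNAi(-), WT(+) and WT(-) and at 0.0248 FPKM in CPL4RNAi(+), and it was tested in no comparison. Summed over the clusters, the thalianol genes had 167.3 FPKM in CPL4RNAi(+), 22.9 in CPL4RNAi(-), 108.2 in WT(+) and 14.2 in WT(-). The marneral genes had 2.06, 1.34, 3.48 and 1.09 FPKM in CPL4RNAi(+), CPL4RNAi(-), WT(+) and WT(-).

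In the groups labelled CPL4RNAi, the summed thalianol signal with cytokinin was 7.29-fold that without. All 4 thalianol genes were called higher, beside 8.42% of the 19156 features tested, a share from which nothing is read for members chosen on this contrast. The log2 fold was 4.52 for AT5G47980 (SE up to 1.11) and 3.29 for CYP705A5 (SE up to 0.81). CYP708A2 had a log2 fold of 3.12 (SE up to 0.77) and THAS1 one of 2.30 (SE up to 0.57). Without a pseudocount the fold decreased gene by gene along the chromosome, and the 4 took ranks 3, 11, 15 and 49 among the 1607 genes called higher that were above 0 FPKM without cytokinin. CYP71A16 was the marneral gene called higher, with a log2 fold of 0.85 (SE 0.30; q of 0.0145 by Cuffdiff, from the authors' deposited table). That call was lost at a q of 0.01 and with a minimum of 2-fold. CYP705A12 differed by 0.18 on the log2 scale and was not tested. The median log2 fold was 3.20 over the 4 thalianol genes and 0.01 over all features tested.

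In wild type, the sum in WT(+) was 7.63-fold that in WT(-). Again all 4 genes were called higher, beside 6.58% of the 18827 features tested. AT5G47980 had a log2 fold of 5.19 (SE 1.33), which ranked 1 among the 1233 genes called higher that were above 0 FPKM in WT(-). CYP705A5 followed at 4.01 (SE up to 0.99), CYP708A2 at 3.00 (SE up to 0.74) and THAS1 at 2.15 (SE up to 0.53), at ranks 7, 23 and 69. Both tested marneral genes were called higher, CYP71A16 by 1.95 (SE up to 0.48) and CYP705A12 by 1.13 (SE 0.41; q of 0.0200 by Cuffdiff, from the authors' deposited table). The call of CYP705A12 was lost at a q of 0.01, with adjustment within the comparison and with an FPKM minimum of 1. The median log2 fold over the thalianol genes was 3.51, against 0.02 over all features tested.

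**Figure D2:**
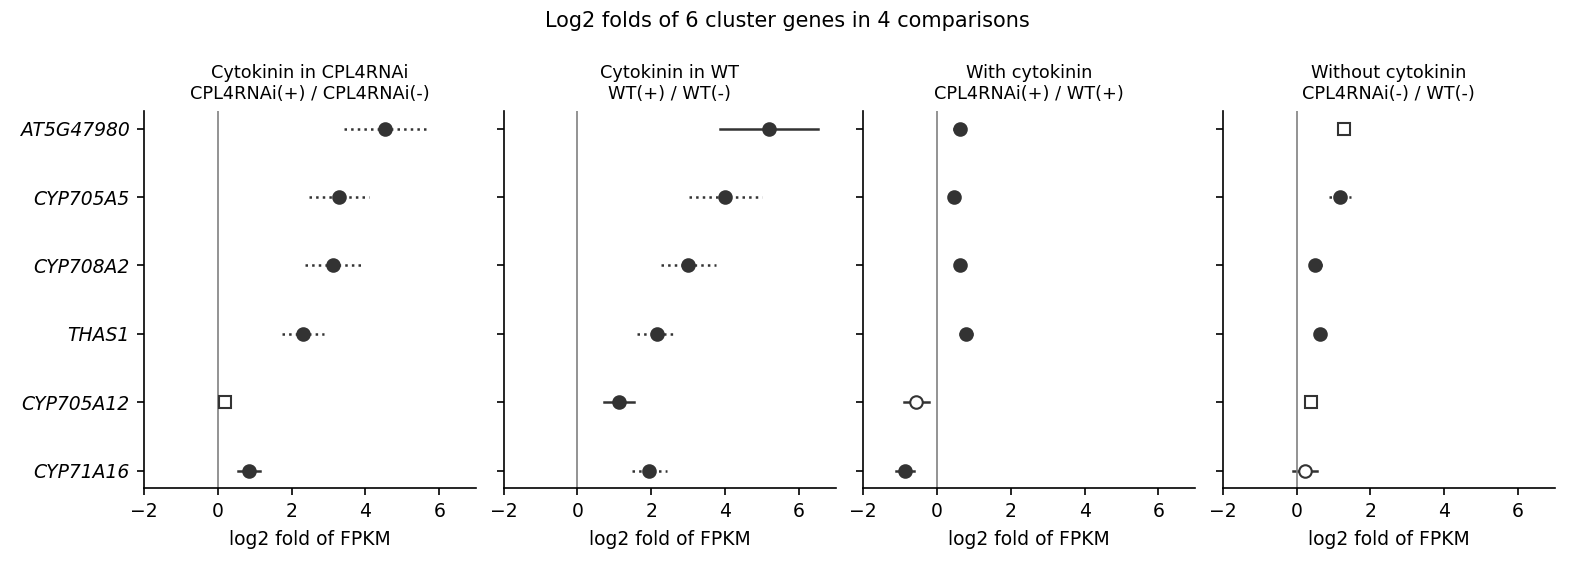
Log2 fold of FPKM (horizontal axis) of 6 cluster genes in 4 comparisons; filled circles are called, open circles are tested and not called, and open squares are not tested. Lines span 1 SE to each side, dotted where the SE is an upper limit, and MRN1 is left out because it was at 0 in 3 groups. The 4 thalianol genes lie between 2.15 and 5.19 for cytokinin and between 0.46 and 1.28 for genotype.

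Without a pseudocount the order of the folds was the reverse of the order of the levels without cytokinin. That order rested on the low level of AT5G47980: with 1 FPKM added to each group its log2 fold was 2.90 in the groups labelled CPL4RNAi and 2.63 in wild type, while that of CYP705A5 was 3.03 and 3.46, that of CYP708A2 2.94 and 2.76, and that of THAS1 2.21 and 2.01. On the FPKM scale the genes compare differently again. With cytokinin, CYP708A2 gained 50.6 FPKM, THAS1 45.1, CYP705A5 39.4 and AT5G47980 9.19 in the groups labelled CPL4RNAi. In wild type the gains were 32.5 FPKM for CYP708A2, 29.9 for CYP705A5, 25.5 for THAS1 and 6.11 for AT5G47980. CYP708A2 thus gained most in FPKM and AT5G47980 least in both genotypes. The make-up of the cluster's signal differed with cytokinin accordingly. THAS1 supplied 33.8% of the summed FPKM in CPL4RNAi(+) and 49.9% in CPL4RNAi(-), and 30.4% in WT(+) and 52.2% in WT(-). CYP705A5 supplied 26.2% in CPL4RNAi(+) and 19.6% in CPL4RNAi(-), and 29.5% in WT(+) and 14.0% in WT(-). CYP708A2 held between 28.6% and 34.3% in all 4 groups. The share of AT5G47980 was 5.74% in CPL4RNAi(+) and 1.82% in CPL4RNAi(-), against 5.80% in WT(+) and 1.21% in WT(-). These shares carry no error, since the table has 1 value per group.

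**Figure D3:**
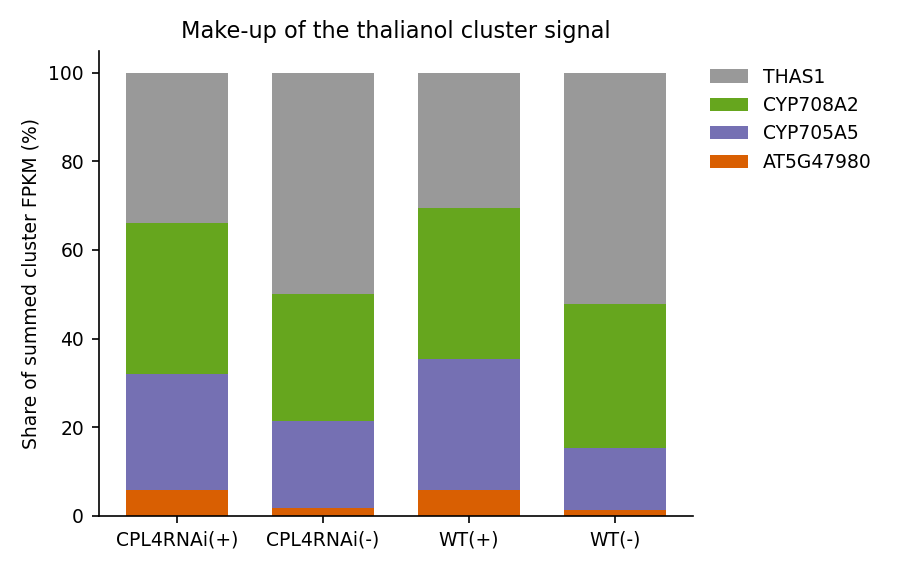
Share (percent) of each of the 4 thalianol genes in their summed FPKM, 1 stacked bar per group. THAS1 makes up 49.9% and 52.2% of the signal in the groups without cytokinin, and 33.8% and 30.4% in those with it.

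The cytokinin folds of the 2 genotypes come from separate libraries and can be set against each other. Their difference, CPL4RNAi minus wild type on the log2 scale, was -0.67 for AT5G47980 (SE up to 1.74), -0.72 for CYP705A5 (SE up to 1.28), 0.12 for CYP708A2 (SE up to 1.07) and 0.15 for THAS1 (SE up to 0.78). Each of these is smaller than its upper limit of the SE. That limit grows with the fold where p is at or near its smallest value, so nothing is read from it. The difference also equals the genotype fold with cytokinin minus that without. These folds were 0.46 (SE up to 0.11) and 1.18 (SE up to 0.29) for CYP705A5. For CYP708A2 they were 0.63 (SE up to 0.15) and 0.51 (SE 0.15), and for THAS1 0.78 (SE up to 0.19) and 0.63 (SE up to 0.16). The difference for CYP705A5 is larger in size than either of its SEs here, and those for CYP708A2 and THAS1 are smaller. For AT5G47980 genotype was not tested without cytokinin. With 1 FPKM added to each group the sign for AT5G47980 turned, at 0.27, and the differences were -0.43 for CYP705A5 and -0.66 for CYP71A16. CYP71A16 had a difference of -1.09 (SE up to 0.56), and CYP705A12 had one of -0.95 with no SE, because it was not tested in the groups labelled CPL4RNAi. The difference itself was not tested.

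Between genotypes the thalianol genes were higher in the groups labelled CPL4RNAi in both media, by less than their cytokinin effect. With cytokinin the summed signal was 1.55-fold that of wild type, and without it 1.62-fold. In CPL4RNAi(+) over WT(+), all 4 were called higher, beside 24.7% of the 19209 features tested. The log2 folds were 0.61 for AT5G47980 (SE 0.16), 0.46 for CYP705A5 (SE up to 0.11), 0.63 for CYP708A2 (SE up to 0.15) and 0.78 for THAS1 (SE up to 0.19). CYP71A16 was called lower in the same comparison, by -0.86 (SE 0.25), where 24.7% of features were called lower. CYP705A12 differed by -0.56 (SE 0.34), which was not called. MRN1 was at 0.0248 FPKM in CPL4RNAi(+) and at 0 in WT(+), and was not tested. None of these 5 calls passed a minimum of 2-fold.

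Without cytokinin, in CPL4RNAi(-) over WT(-), the 3 thalianol genes that were tested were called higher, beside 22.5% of the 19277 features tested. CYP705A5 had a log2 fold of 1.18 (SE up to 0.29), THAS1 of 0.63 (SE up to 0.16) and CYP708A2 of 0.51 (SE 0.15). The calls of THAS1 and CYP708A2 did not pass a minimum of 2-fold. AT5G47980 differed by 1.28 and was not tested, its levels being 0.418 FPKM in CPL4RNAi(-) and 0.172 in WT(-). For CYP71A16 the difference of 0.23 (SE 0.32) was not called, and for CYP705A12 that of 0.39 was not tested. In the remaining pairs, all 4 thalianol genes were called higher in CPL4RNAi(+) than in WT(-), beside 26.4% of features, and all 4 were called lower in CPL4RNAi(-) than in WT(+), beside 22.6%. These last folds ran from -3.91 for AT5G47980 to -1.52 for THAS1. CYP71A16 was called higher in the first of these pairs, by 1.08, and lower in the second, by -1.71.

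Beyond the 4 genes taken here as the thalianol cluster, 1 further gene was called for cytokinin in both genotypes. Of the 5 features on each side 8 were tested, and 3 were called higher in the groups labelled CPL4RNAi and 1 in wild type, while none was called lower in either. Over all features 8.42% and 6.58% were called higher, and with 8 features nothing is read from the counts. The gene called in both was AT5G47950, annotated as another HXXXD-type acyltransferase, whose end lies 10.3 kb before AT5G47980. Whether it belongs to the thalianol pathway cannot be read from the annotation used here, so it may be a further member of the cluster and not a gene outside it. It had 5.72 FPKM in CPL4RNAi(+), 1.41 in CPL4RNAi(-), 2.03 in WT(+) and 0.439 in WT(-). Its log2 fold with cytokinin was 2.02 (SE up to 0.50) in the groups labelled CPL4RNAi and 2.21 (SE up to 0.55) in wild type, and between genotypes it was 1.49 (SE up to 0.37) with cytokinin and 1.68 (SE 0.48) without, all called. Between it and the cluster lie AT5G47960 and AT5G47970, which the table gives with the same boundaries, so that their reads may not be separable. They differed by -0.01 and 0.25 in the groups labelled CPL4RNAi and by 0.21 and -0.07 in wild type, and were not called. The other genes called with cytokinin were AT5G47930 and AT5G47940, whose annotations name ribosomal proteins, at 0.26 (SE 0.11) and 0.32 (SE 0.12) in the groups labelled CPL4RNAi.

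On the far side, AT5G48020, an oxygenase gene next to THAS1, had 54.3 FPKM in CPL4RNAi(+), 46.3 in CPL4RNAi(-), 25.2 in WT(+) and 24.4 in WT(-). Its genotype folds of 1.11 with cytokinin (SE up to 0.27) and 0.92 without (SE up to 0.23) were called higher, and its cytokinin folds of 0.23 and 0.04 were not called. GFA2, AT5G48040 and AT5G48060 differed with cytokinin by between -0.11 and 0.12 in either genotype, and AT5G48050 was at or near 0. Around the marneral cluster 6 of the 10 flanking features were listed at 0 in all 4 groups, and AT5G42591, between CYP71A16 and MRN1, was too. AT5G42560, AT5G42570 and AT5G42620 were well expressed, and their cytokinin folds lay between -0.09 and 0.09. KAN4, a KANADI-family transcription factor gene, had 7.71 FPKM in CPL4RNAi(+), 11.2 in CPL4RNAi(-), 22.4 in WT(+) and 34.4 in WT(-). It was called lower with cytokinin, by -0.54 (SE 0.16) in the groups labelled CPL4RNAi and -0.62 (SE up to 0.15) in wild type, against the direction of CYP71A16.

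**Figure D4:**
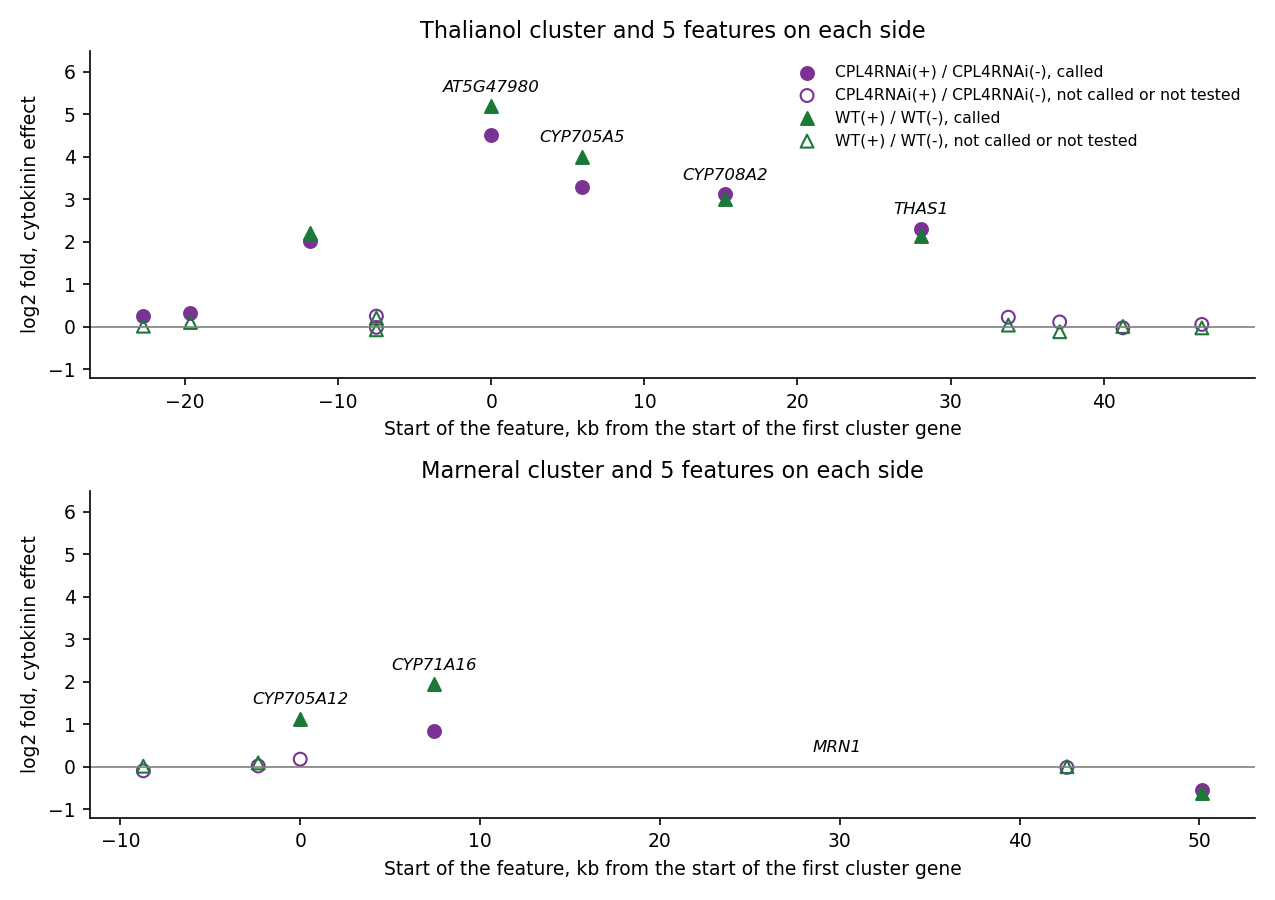
Log2 fold with cytokinin (vertical axis) against the start of each feature in kb from the start of the cluster's first gene, for both clusters and 5 features on each side; features at 0 in a group, MRN1 included, have no fold and are not drawn. The 4 thalianol genes and AT5G47950, at about 2 on the vertical axis to the left of them, stand above neighbours that lie near 0.

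Other cyclases of the oxidosqualene family were at a range of levels. CAS1, the cycloartenol synthase that feeds the sterols, had 47.1 FPKM in CPL4RNAi(+), 43.7 in CPL4RNAi(-), 48.3 in WT(+) and 44.7 in WT(-), and was called in none of the 4 comparisons of cytokinin or genotype. LUP2, lupeol synthase 2, had 49.6, 53.0, 170.2 and 192.9 FPKM in CPL4RNAi(+), CPL4RNAi(-), WT(+) and WT(-). Its genotype folds, -1.78 with cytokinin (SE up to 0.44) and -1.86 without (SE up to 0.46), were called lower, and for cytokinin it was not called. BAS (AT1G78950), the beta-amyrin synthase, had 3.30, 1.80, 2.87 and 1.12 FPKM in the same order of groups. Its cytokinin folds were 0.87 (SE up to 0.21) in the groups labelled CPL4RNAi and 1.36 (SE up to 0.34) in wild type, both called higher. Between genotypes BAS was called higher without cytokinin, at 0.69 (SE 0.23), and was not called with it, at 0.20 (SE 0.17).

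PEN1, the arabidiol synthase of another triterpene gene region, had 0.969 FPKM in CPL4RNAi(+), 1.76 in CPL4RNAi(-), 2.14 in WT(+) and 2.77 in WT(-). Its cytokinin fold was -0.86 in the groups labelled CPL4RNAi (SE 0.25), called lower, and -0.37 in wild type (SE 0.18), not called. CAMS1 was lower in the groups labelled CPL4RNAi by -0.95 and -1.34 with and without cytokinin, and lower with cytokinin in wild type by -0.47. LAS1, the lanosterol synthase, was called higher with cytokinin in wild type by 0.85 and in CPL4RNAi(-) over WT(-) by 0.99. LUP5 (AT1G66960) stayed at or under 0.239 FPKM, LUP1 at or under 0.0893, BARS1 at or under 0.0339, and PEN3 and PEN6 (AT1G78500) were listed at 0 throughout. Among the 11 other cyclases 6 were tested for cytokinin, with 1 called higher and 1 lower in the groups labelled CPL4RNAi and 2 higher and 1 lower in wild type. Over all features 8.42% were called higher and 8.88% lower in the groups labelled CPL4RNAi, and 6.58% and 3.71% in wild type, and with 6 genes nothing is read from the counts. Their median log2 folds were -0.08 and -0.03.

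**Figure D5:**
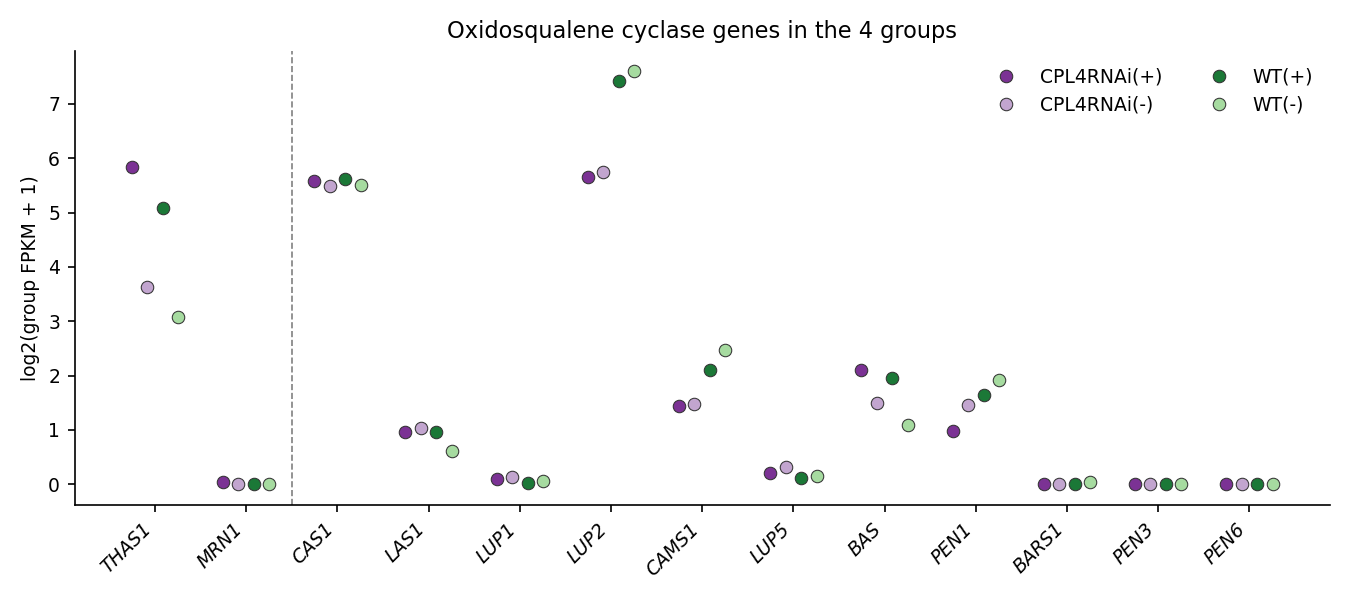
log2(FPKM + 1) of the oxidosqualene cyclase genes, 1 point per group and gene; THAS1 and MRN1 stand left of the dashed line. THAS1 and, at lower levels, BAS have both cytokinin groups above both groups without it. CAS1 stays between 43.7 and 48.3 FPKM and LUP2 is lower in the groups labelled CPL4RNAi.

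In the chromosome 4 region that holds PEN1, BARS1 and 4 CYP705A genes, 3 of 6 genes were tested for cytokinin. All 3 were called lower in the groups labelled CPL4RNAi, beside 8.88% of features called lower, and 1 in wild type, beside 3.71%. CYP705A2, of the same P450 subfamily as CYP705A5, fell by 1.15 and 2.22 on the log2 scale with cytokinin, to 0.557 FPKM in CPL4RNAi(+) against 1.23 in CPL4RNAi(-), and to 0.227 FPKM in WT(+) against 1.06 in WT(-). The lists of genes that supply the precursor are short, and nothing is read from their counts called with cytokinin. Over all features 8.42% were called higher in the groups labelled CPL4RNAi and 6.58% in wild type. Of 13 genes from acetoacetyl-CoA thiolase to squalene synthase, 1 was called higher in the groups labelled CPL4RNAi and 0 in wild type, with median log2 folds of 0.06 and 0.01; at an unadjusted p under 0.05, Cuffdiff had 0 of the 13 in wild type. HMG2, for an HMG-CoA reductase, was that gene, at 0.27, and HMG1 differed by 0.08 and 0.20, which was not called. Of 4 tested squalene epoxidases, which make oxidosqualene, 1 was called higher in the groups labelled CPL4RNAi and 0 in wild type, where 1 had an unadjusted Cuffdiff p under 0.05. SQE3 had 6.86 FPKM in CPL4RNAi(+), 4.41 in CPL4RNAi(-), 5.65 in WT(+) and 4.49 in WT(-), and its folds were 0.64 (SE up to 0.16, called) and 0.33 (SE 0.16, not called). SQE2 differed by 0.26 and 0.15 and was not called.

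Of 15 sterol synthesis genes, 1 was called higher with cytokinin in the groups labelled CPL4RNAi and 2 in wild type, with median folds of -0.01 and -0.03. Over all features 8.42% and 6.58% were called higher, and nothing is read from counts this small. CYP710A1, a sterol desaturase gene, and SMO1-1 (AT4G12110), for a sterol demethylation enzyme, were those called in wild type, at 0.69 and 0.66, and differed by 0.02 and -0.04 in the groups labelled CPL4RNAi. Between genotypes, 7 of the 15 were called higher and 2 lower in each medium, and 5 of the 13 earlier genes were called higher and 1 lower in each medium, shares to be read beside the 24.7% of all features called higher and 24.7% called lower with cytokinin, and 22.5% and 21.5% without.

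Cell type markers moved as well, and in bulk samples fewer cells of a type and less RNA per cell cannot be told apart. With cytokinin, 6 of 7 tested endodermis markers were called lower in the groups labelled CPL4RNAi and 5 of 6 in wild type, the opposite direction to the thalianol genes, beside 8.88% and 3.71% of all features called lower. Between genotypes they ran the same way as the thalianol genes: 4 of 6 were called higher and 1 lower with cytokinin (median log2 fold 1.37), and 5 of 7 higher and 1 lower without it (median 1.55), beside 24.7% and 22.5% of all features called higher. Their sum was 100.9 FPKM in CPL4RNAi(+), 178.0 in CPL4RNAi(-), 31.1 in WT(+) and 50.9 in WT(-). MYB36 alone held 74.1, 109.7, 9.68 and 11.7 FPKM of these sums, in that order, so the difference in the sum between genotypes is mostly that of 1 gene. SCR, at 10.2, 11.5, 14.7 and 18.1 FPKM, was lower in the groups labelled CPL4RNAi. The marker CASP5 (AT5G15290) was at 0 in WT(+). CASP1 (AT2G36100) had a cytokinin fold of -1.88 (SE up to 0.46) for CPL4RNAi and of -2.27 (SE up to 0.56) for wild type, both called. Root epidermis markers summed to 11.6, 10.6, 13.0 and 13.5 FPKM in CPL4RNAi(+), CPL4RNAi(-), WT(+) and WT(-). Of these, 0 of 4 tested were called for cytokinin in the groups labelled CPL4RNAi by Cuffdiff, with 0 at an unadjusted p under 0.05, and in wild type WER was called lower, by -0.75, of 3 tested. EXP7 (AT1G12560) differed by 0.09 and 0.36 and was not called.

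The 4 root cap markers summed to 29.9 FPKM in CPL4RNAi(+), 29.7 in CPL4RNAi(-), 9.28 in WT(+) and 15.1 in WT(-), and 2 were called lower with cytokinin in wild type, among them BRN1 (AT1G33280) at -0.77. Between genotypes 3 of 4 were called higher with cytokinin (median log2 fold 2.08) and 2 of 4 without it (median 0.56). BRN2 differed by -0.05 and -2.52 and was not called. Xylem markers summed to 48.2, 74.3, 39.1 and 6.73 FPKM in CPL4RNAi(+), CPL4RNAi(-), WT(+) and WT(-). With cytokinin, 6 of 6 were called lower in the groups labelled CPL4RNAi and 5 of 6 higher in wild type, where XCP2 rose by 2.89 and CESA4 by 2.77. The thalianol genes were called higher in both. Between genotypes 1 of 6 xylem markers was called higher with cytokinin and 6 of 6 without it (median log2 fold 3.67). Phloem markers summed to 33.1, 13.8, 46.5 and 35.4 FPKM in the same order, with 2 of 3 called higher with cytokinin in the groups labelled CPL4RNAi and 1 of 3 in wild type. SUC2, a sucrose carrier of the phloem, rose by 1.65 and 0.50 and SEOR1 (AT3G01680) by 0.55 in the groups labelled CPL4RNAi, while its 0.23 in wild type was not called. All 3 phloem markers were called lower in the groups labelled CPL4RNAi in both media, with median log2 folds of -0.87 and -1.48. Beside these counts, 8.42% of all features were called higher and 8.88% lower with cytokinin in the groups labelled CPL4RNAi. In wild type the shares were 6.58% and 3.71%. Between genotypes 24.7% were called higher and 24.7% lower with cytokinin, and 22.5% and 21.5% without it. With lists this short, a count is not read as a result by itself. The part of the cell type markers in the thalianol results was not tested.

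Profiles most like the mean thalianol profile were sought among the 15680 other genes that reached 5 FPKM in any group, as the distance between log2(FPKM + 1) values centred over the 4 groups. Nearest was LCR25, for a small secreted cysteine-rich protein, at a distance of 0.13, with 33.8 FPKM in CPL4RNAi(+), 3.98 in CPL4RNAi(-), 24.2 in WT(+) and 2.45 in WT(-). Its cytokinin fold was called in wild type, at 3.31 (SE 1.38), and not in the groups labelled CPL4RNAi, at 3.08 (SE 1.55). Next came SDR4 (AT3G29250), a short-chain dehydrogenase reductase gene that may belong to the thalianol pathway, which the annotation used here does not settle. It lies on another chromosome, at a distance of 0.34 from the mean profile, with 43.1, 7.62, 38.3 and 4.46 FPKM in CPL4RNAi(+), CPL4RNAi(-), WT(+) and WT(-). It was called higher with cytokinin in both genotypes, by 2.50 (SE up to 0.62) and 3.10 (SE up to 0.76). The histidine kinase gene ATHK1 (AT2G17820) followed at 0.46, DVL21 at 0.55 and LBD3 at 0.60. LBD3 had 49.8 FPKM in CPL4RNAi(+), 7.56 in CPL4RNAi(-), 22.2 in WT(+) and 2.86 in WT(-), and ATHK1 had 48.7, 7.24, 32.7 and 6.49 FPKM in that order. DVL21 was at 0 in both groups without cytokinin and was not called.

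The mean marneral profile varied little on the same scale. It averages genes at or under 2.54 FPKM, MRN1 at or near 0 among them, with 1 FPKM added to each value. Its nearest genes, among 15684, were AT2G20560, a DNAJ heat shock gene, at a distance of 0.06, the heat shock gene HSP90.1 (AT5G52640) at 0.09, YSL7 at 0.11, NIK1 at 0.11 and HAT22 at 0.12. HSP90.1 had 24.1 FPKM in CPL4RNAi(+), 22.1 in CPL4RNAi(-), 31.7 in WT(+) and 20.8 in WT(-). Without a pseudocount its log2 fold with cytokinin in wild type was 0.61, and that of AT2G20560 was 0.49. CYP71A16 had 1.95 and CYP705A12 1.13 in that comparison, so nearness here does not mean like folds. None of the 5 nearest genes lies among the neighbours of the cluster. Likeness over 4 group values is a description and carries no test.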

How the data were processed

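Libraries from 12 root explant samples kept strand, were depleted of ribosomal RNA and were read from both ends over 125 nt, per the labels' protocols. The tools named in the submitters' processing notes are bcl2fastq 2.17.1.14, TopHat2 2.0.14 and Cuffdiff 2.2.1.3, with TAIR10 as the build; options, and whether counting used strand, are not given in the sources used here. The authors' deposited table gives group FPKM for 33557 features and, per the file headers, a p-value and q-value for each of 6 pairwise comparisons. The q-value equals a Benjamini-Hochberg adjustment over all 115069 tests (largest difference 5.3e-07).

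Log2 folds were recomputed from FPKM without a pseudocount, since 5670 cells of the deposited fold column hold no number. SEs come from the p-values, and those of 2 independent folds were added in quadrature. The calculation of SEs and of adjusted p-values was tested on simulated data. Lists were described by counts and medians, with no set test. Members and lists were chosen with earlier results of these data known. Named were the members, the other oxidosqualene cyclases, 2 genes per other list with the largest summed cytokinin folds, the 5 features on each side of each cluster and the 5 nearest profiles per cluster. A gene was named beyond this where it was the reason for a count. The values of 1 gene that this rule names are not reported here.

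Coordinates are those of the deposited table, counted from 1. For upstream sequences and strand, RefSeq's TAIR10.1 was used. Of 33278 nuclear features 27973 have a RefSeq gene of the same identifier, and all of these overlap it at the same place. Software was Python 3.11.15 with SciPy 1.17.1, pandas 2.3.3 and numpy 2.4.6, and matplotlib 3.10.9 for the plots.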

Additional observations from a re-analysis of the deposited data

How the results depend on the processing

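No paired analysis was possible because the table holds 1 value per group, and for the same reason no replicate could be left out. Requiring at least 2-fold left 0 of the 4 thalianol calls higher and 0 of the 1 marneral call lower with cytokinin between genotypes, and 1 of 3 higher without it. Under that minimum the calls over all features were 669 and 518 for cytokinin in CPL4RNAi and in wild type, 2519 and 2272 for genotype with and without cytokinin, 2931 for CPL4RNAi(+) over WT(-) and 2423 for CPL4RNAi(-) over WT(+). A q of 0.01 left 2118 and 1262 calls for cytokinin in CPL4RNAi and in wild type. Of the cytokinin calls, that of CYP71A16 in CPL4RNAi was lost at a q of 0.01 and under 2-fold (4 members left of 5), and that of CYP705A12 in wild type at a q of 0.01, with adjustment within the comparison and with an FPKM minimum of 1 (5 left of 6 each time). No thalianol call for cytokinin was lost under these settings. The difference of the cytokinin effect for CYP705A12, which has no SE, was -0.37 with a pseudocount of 1 FPKM and -0.96 after recentring. For AT5G47980 the pseudocount turned that difference to 0.27 from -0.67, a move within an SE known only as an upper limit. No called fold of a member changed sign under either setting. With the pseudocount AT5G47980 no longer had the largest cytokinin fold in either genotype. Under the same setting 16 of 36 folds moved by more than their SE, or its upper limit, or had no SE. Where the SE is an upper limit, a move can be missed. By Pearson's r over the 4 groups, 1 of the 5 nearest thalianol profiles and 0 of the 5 marneral ones were kept. Depth per library is unknown, and it limits above all genes near or under 1 FPKM, such as the marneral genes.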
